A study of Mus musculus with 4 samples.

Results

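Genes of the junctions between cells, of hepatocytes and of other cells, were examined in mouse liver. These were the claudins Cldn1, Cldn2, Cldn3, Cldn6 and Cldn7, the classical cadherins Cdh1 and Cdh2, and the connexins Gjb1, Gjb2 and Gja1. They were chosen by name, with earlier results of these data known, and all 10 were present among the 13903 genes of the expression table. Tight junctions are built from claudins, which seal the bile canaliculus or form pores in the seal. Adherens junctions hold cells together through cadherins, whose tails bind catenins. Gap junctions are channels of connexins that let ions and small molecules pass between hepatocytes.

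Livers came from mice of the OGT-Floxed type (background C57BL/6J), in which the gene for O-GlcNAc transferase can be removed by Cre recombinase. All mice, controls included, were fed the CDE diet, which lacks choline, contains ethionine and injures the liver. The virus AAV8-TBG-CRE was given to the mice labelled OGT-KO and AAV8-TBG-eGFP to those labelled Control. The TBG promoter is active in hepatocytes, so that other cells of the liver were expected to keep Ogt. Livers of each label were collected at the end of the diet (No Recovery) or 7 days later, and the labels used here give neither age nor sex. Each of the 4 conditions was 1 mRNA library made from equal amounts of RNA of 3 mice, so that no value has a replicate error and no difference between conditions could be tested against the spread between animals.

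The libraries held 19972699 to 22866431 reads on the listed genes, and values are counts per 1000000 of these reads (CPM). Levels and ratios are given with exact 95% intervals that cover counting error only. In CPM the gene targeted by the virus did not go with its label at both times. Ogt was at 64.7 CPM in the control and 55.3 CPM in the OGT-KO library with no recovery, but at 55.7 and 77.7 CPM after 7 days. Conditions are therefore named as labelled, and each direction below is between labels. Of 8 hepatocyte markers, all were detected, with a summed level of 55384 to 80428 CPM. The 100 most abundant genes took 42.8% and 45.0% of the reads in the control libraries and 34.1% and 34.3% in those labelled OGT-KO. On the log2(CPM + 1) scale the median gene stood 0.65 above control under the OGT-KO label with no recovery and 0.61 above it after 7 days, so each difference between labels is also given less that of the median gene. Scaling by the median ratio, the upper quartile or TMM (a trimmed mean of ratios) moves this centre. After 7 days the rise of Ogt was smaller than that of the median gene. Less the median gene, Ogt was thus lower under the OGT-KO label at both times, so that its direction after 7 days depends on the centre chosen.

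With no recovery, 5 of the 10 junction genes were at least 2-fold higher in the library labelled OGT-KO (Cldn1, Cldn6, Cldn7, Cdh1 and Gja1), where 33.1% of all genes were. Gjb1 was the 1 member at least 2-fold lower, against 4.35% of all genes. After 7 days 4 members were higher (Cldn6, Cldn7, Cdh1 and Gja1), where 32.3% of all genes were, and 0 were lower, where 3.32% of all genes were. Over 10 genes the counts of higher members lie near these shares, so that they are no result about the junction genes as a set. The members had a median log2 difference of 0.85 at the first time, beside 0.65 over all genes, and of 0.68 at the second, beside 0.61. Cldn6, Cldn7, Cdh1 and Gja1 were at least 2-fold higher at both times, as were 26.9% of all genes. Under median-ratio scaling the calls with no recovery were 3 higher and 2 lower among the members, beside 2399 higher and 1630 lower of all 13903 genes. After 7 days 4 members were higher and 2 lower under that scaling, beside 2777 and 1253 of all genes. Of all genes called with no recovery 59.5% were higher, in place of 88.4%. After 7 days that share was 68.9% in place of 90.7%.

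**Figure D1:**
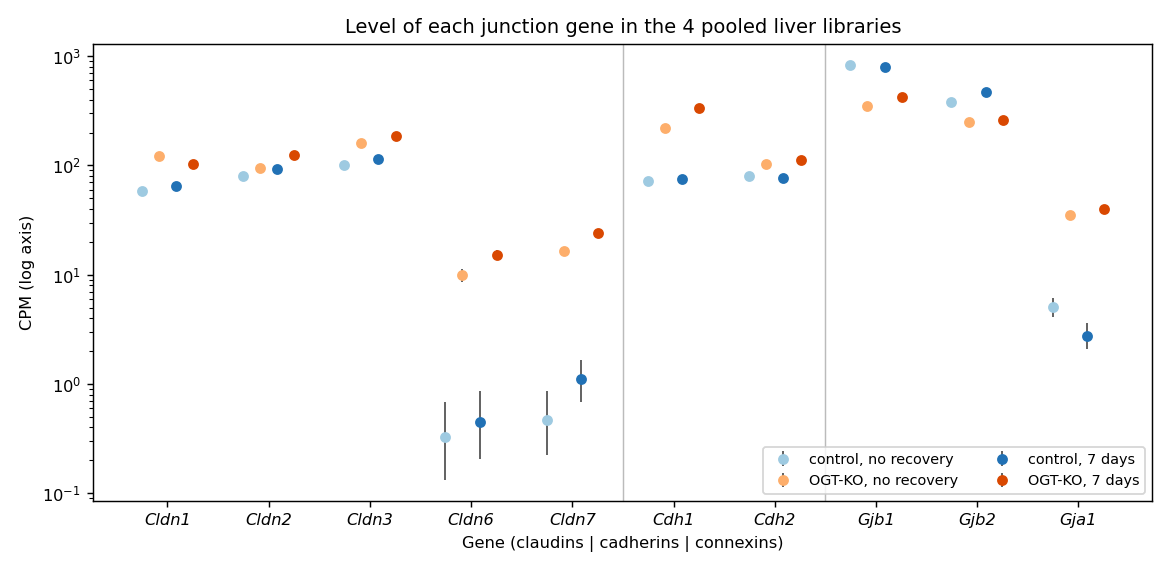
Level of each junction gene in CPM (log axis) in the 4 pooled liver libraries, with exact 95% Poisson intervals for counting error. Cldn6, Cldn7 and Gja1 are lowest in both control libraries, and Gjb1 and Gjb2 are highest there.

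Among the claudins, Cldn3 was the most abundant per length of transcript in every library, while Cldn6 and Cldn7 had few reads in the control libraries and many more under the OGT-KO label. Chromosomes and exon counts are those of the principal transcript in GENCODE M21. Cldn6 (ENSMUSG00000023906, chromosome 17, 3 exons), a claudin of embryonic epithelia, had 7 reads in the control library with no recovery and 225 in the OGT-KO library, or 0.329 (0.132 to 0.678) and 9.84 (8.60 to 11.2) CPM. After 7 days it had 9 and 340 reads, or 0.451 (0.206 to 0.855) and 15.1 (13.5 to 16.8) CPM. Its intervals were far apart between the labels at both times, while those of the control libraries overlapped. The CPM ratio of OGT-KO to control was 29.9 (14.3 to 75.2) at the first time and 33.4 (17.4 to 73.7) at the second. Less the median gene, the difference on the log2(CPM + 1) scale was 2.38 and 2.86. Cldn6 was the 1 member with a mean below 10 CPM, and with a pseudocount of 10 its log2 difference with no recovery, 0.94, was no longer 2-fold.

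Cldn7 (ENSMUSG00000018569, chromosome 11, 4 exons) is a claudin of ducts and other epithelia. It was at 0.470 (0.226 to 0.865) CPM in the control and 16.3 (14.7 to 18.1) CPM in the OGT-KO library with no recovery. After 7 days it was at 1.10 (0.690 to 1.67) and 24.3 (22.3 to 26.4) CPM. The control libraries were low at both times, with 10 and 22 reads, and the OGT-KO libraries high, with 373 and 548. The ratio was 34.7 (18.6 to 72.9) and then 22.0 (14.4 to 35.5). Its log2(CPM + 1) difference less the median gene was 2.91 and 2.97.

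The promoters of these 2 claudins are shown because both genes had at most 22 reads in a control library and their starts carry the same letters. Each line gives the 150 bases before the start of transcription, from RefSeq on GRCm38.p6, on the plus strand, 5′ to 3′. Capitals mark the E-box CAGGTG, or CACCTG where it reads on the other strand, and the cAMP response element TGACGTCA, which reads the same on both strands. Cldn6 is at chr17:23679215-23679364 and Cldn7 at chr11:69965271-69965420.
Cldn6: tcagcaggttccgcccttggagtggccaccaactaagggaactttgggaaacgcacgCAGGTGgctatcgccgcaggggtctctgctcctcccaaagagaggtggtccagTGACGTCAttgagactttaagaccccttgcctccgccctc
Cldn7: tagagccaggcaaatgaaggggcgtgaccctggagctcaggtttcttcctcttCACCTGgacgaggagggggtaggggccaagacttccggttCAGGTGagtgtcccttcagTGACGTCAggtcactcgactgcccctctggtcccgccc
In Cldn6 the E-box begins 93 bases and the TGACGTCA element 40 bases before the start, and in Cldn7 the E-boxes begin 97 and 57 bases and the element 38 bases before it. The matches do not overlap. In the 250 bases before the start, TGACGTCA stood in 2 of the 12 windows found for the junction genes, those of Cldn6 and Cldn7, and in 1.55% of 32851 mouse windows. CAGGTG stood in 4 of the 12, 1 each of Cldn6, Cldn7, Gjb1 and Gjb2, and in 17.2% of all windows. The first element was looked for after the windows had been read, and a match of letters does not show that a factor binds.

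Transcripts of bile duct markers moved with Cldn6 and Cldn7. Of 10 such markers, 8 with no recovery and 9 after 7 days were at least 2-fold higher in the library labelled OGT-KO, and none was lower. Of all genes 33.1% and 32.3% were higher. By median ratio, where 2399 and 2777 of all 13903 genes were higher, 8 of the markers were at each time. Their summed level was 79.1 and 100.3 CPM in the control libraries and 1254 and 1619 CPM in the OGT-KO libraries, most of it Spp1. Epcam, a membrane protein of duct cells, was at 1.55 and 2.35 CPM in the controls and 64.2 and 82.6 CPM under the OGT-KO label. Higher markers were not particular to duct cells: 8 of 8 stellate and 5 of 6 macrophage markers were higher at each time. By median ratio 8 stellate markers were higher at each time, and 3 and then 5 macrophage markers. Of endothelial markers 3 and 1 of 6 were higher at the deposited scaling, and of hepatocyte markers 0 of 8. In bulk liver, more cells of a type and more RNA per cell cannot be told apart, and the part of duct or other cells in the claudin values was not tested.

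Cldn1, Cldn2 and Cldn3 differed far less. Cldn1 (ENSMUSG00000022512, chromosome 16, 4 exons), which forms the paracellular barrier of hepatocytes, was at 57.9 (54.7 to 61.2) CPM in the control and 121 (117 to 126) CPM in the OGT-KO library with no recovery, and at 64.8 (61.3 to 68.4) and 104 (99.6 to 108) CPM after 7 days. The OGT-KO libraries were the higher at each time, and the ratio fell from 2.09 (1.96 to 2.24) to 1.60 (1.50 to 1.71). Less the median gene, the log2 difference of Cldn1 was 0.40 at the first time and 0.06 at the second, and under median-ratio scaling it was 0.34 and then −0.01, so that its direction after 7 days turned on the scaling.

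Cldn3 (ENSMUSG00000070473, chromosome 5, 1 exon) is a barrier claudin. It was at 101 (97.0 to 106) and 159 (154 to 164) CPM with no recovery and at 114 (109 to 119) and 184 (179 to 189.8) CPM after 7 days, control first. The ratio was 1.57 (1.49 to 1.66) and 1.61 (1.53 to 1.70). This was close to the shift of the median gene. Less that gene the log2 difference was −0.01 and 0.07, and under median-ratio scaling −0.07 and 0.01.

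Cldn2 (ENSMUSG00000047230, chromosome X, 2 exons), which forms a pore for cations and water, is found mainly in hepatocytes near the central vein. It was at 79.2 (75.5 to 83.1) CPM in the control and 94.6 (90.7 to 98.7) CPM in the OGT-KO library with no recovery, and at 93.2 (89.0 to 97.6) and 124 (119 to 128) CPM after 7 days. The ratio was 1.19 (1.12 to 1.27) and 1.33 (1.25 to 1.41), but less the median gene the log2 difference was −0.40 and −0.21, and under median-ratio, upper-quartile and TMM scaling it was below 0 at both times. Markers of perivenous hepatocytes summed to 8061 and 9237 CPM in the controls and to 1559.5 and 1921 CPM under the OGT-KO label. Of those 7 markers, 4 were at least 2-fold lower with no recovery, where 4.35% of all genes were. After 7 days 3 were, where 3.32% of all genes were. By median ratio, where 1630 and 1253 of all 13903 genes were lower, 7 and 5 of the markers were. Their part in the values of Cldn2 was not tested.

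Per kilobase of the principal transcript, and within 1 library so that scaling drops out, Cldn3 stood above Cldn2 and Cldn1. Cldn3 was at 80.4 CPM per kb in the control library with no recovery, Cldn2 at 26.0 and Cldn1 at 17.8. The ratio of Cldn2 to Cldn1 per kb was 1.46 (1.36 to 1.57) in that library and 0.833 (0.787 to 0.882) in the OGT-KO library, so that their order was reversed. After 7 days it was 1.53 (1.43 to 1.65) and 1.27 (1.20 to 1.34), above 1 in both. Cldn7 was 0.00438 (0.00210 to 0.00808) of Cldn3 per kb in the control library with no recovery and 0.0969 (0.0869 to 0.108) in the OGT-KO library. After 7 days it was 0.00911 (0.00570 to 0.0138) and 0.124 (0.114 to 0.136). Cldn6 and Cldn7 together with Cldn1, Cldn2 and Cldn3 summed to 125 and 142 CPM per kb in the control libraries and to 213 and 246 in those labelled OGT-KO. Between labels these sums depend on the scaling, and they include the shift of the median gene, 0.65 and 0.61 on the log2(CPM + 1) scale. Of these sums Cldn3 gave 64.4% and 63.7% in the controls and 59.3% and 59.4% under the OGT-KO label, while Cldn7 gave 0.282% and 0.580% in the controls and 5.74% and 7.39% under the OGT-KO label.

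**Figure D2:**
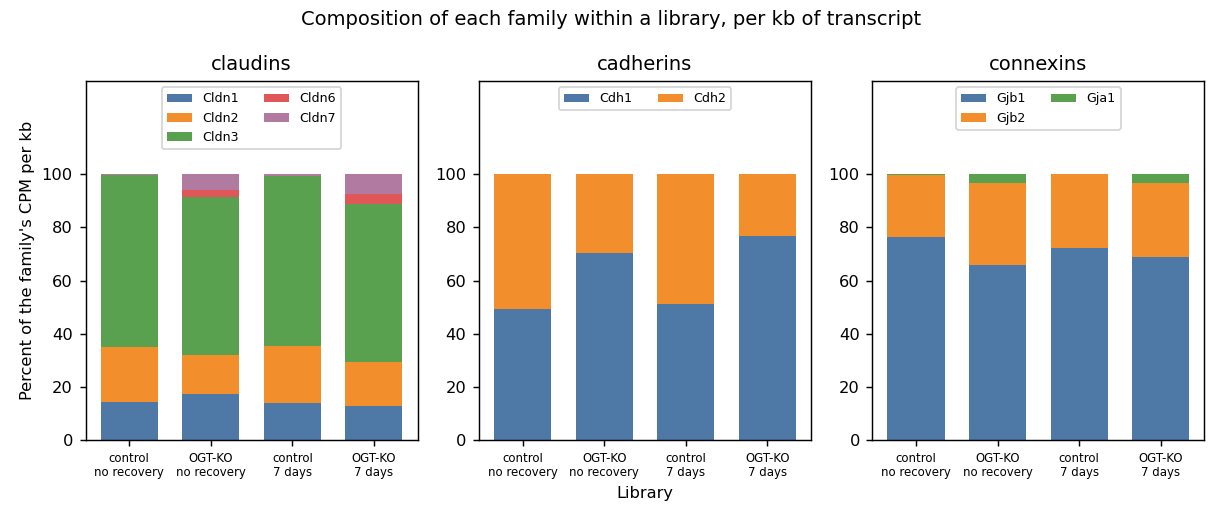
Share of each gene in its family's summed CPM per kb of transcript, for claudins, cadherins and connexins in each of the 4 libraries. Cdh1 takes 49.5% and 51.4% of the cadherin sum in the control libraries and 70.3% and 76.8% in those labelled OGT-KO.

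Both classical cadherins of hepatocytes were expressed at like levels in the control libraries, and Cdh1 stood above Cdh2 in those labelled OGT-KO. Cdh1 (ENSMUSG00000000303, chromosome 8, 16 exons), or E-cadherin, is the epithelial cadherin, strongest in hepatocytes around the portal tract and in bile ducts. It was at 71.6 (68.1 to 75.3) CPM in the control and 220.0 (214 to 226) CPM in the OGT-KO library with no recovery, and at 74.4 (70.6 to 78.2) and 337 (329 to 345) CPM after 7 days. The 2 control libraries had overlapping intervals and the OGT-KO libraries were both higher. The ratio of Cdh1 between labels was 3.07 (2.90 to 3.25) and then 4.53 (4.28 to 4.79), and its log2 difference less the median gene was 0.95 and 1.55. It stayed higher under every scaling, at 0.89 and 1.48 by median ratio, of which the first is below 2-fold.

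Cdh2 (ENSMUSG00000024304, chromosome 18, 16 exons), or N-cadherin, is carried by hepatocytes and by stellate cells. It was at 79.8 (76.0 to 83.7) and 102 (97.7 to 106) CPM with no recovery and at 76.9 (73.1 to 80.8) and 112 (107 to 116) CPM after 7 days, control first. The ratio was 1.28 (1.20 to 1.36) and 1.45 (1.36 to 1.55), smaller than the shift of the median gene. Less that gene, the log2 difference of Cdh2 was −0.30 and −0.08, and it was below 0 under median-ratio and TMM scaling at both times and above 0 by upper quartile after 7 days.

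The ratio of Cdh1 to Cdh2 within a library does not depend on the scaling. Per kb it was 0.982 (0.915 to 1.05) and 1.06 (0.984 to 1.14) in the control libraries with no recovery and after 7 days, so that both intervals held 1. Under the OGT-KO label it was 2.36 (2.25 to 2.48) and 3.30 (3.16 to 3.46). Bile duct markers moved with Cdh1, and so did stellate and macrophage markers, as given for the claudins. Of all genes, 33.1% and 32.3% were 2-fold higher at the 2 times, and 4.35% and 3.32% lower. Of 7 markers of periportal hepatocytes, 1 was higher and 3 were lower by 2-fold with no recovery, and 0 were higher and 2 lower after 7 days. By median ratio 2399 and 2777 of all 13903 genes were higher, and 1630 and 1253 lower. Of the periportal markers 0 were then higher at either time, and 6 and 5 were lower. Their sum was 9296 and 7800 CPM in the controls and 5550.2 and 5373 CPM under the OGT-KO label. The part of duct or other cells in the Cdh1 value was not tested.

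The hepatocyte connexins were lower and Gja1 was higher under the OGT-KO label. Gjb1 (ENSMUSG00000047797, chromosome X, 2 exons), or Cx32, is the main gap junction protein of the hepatocyte. It was at 822 (810.0 to 834) CPM in the control and 352 (344 to 359.7) CPM in the OGT-KO library with no recovery, and at 800.1 (788 to 813) and 419 (410.2 to 427) CPM after 7 days. Both control libraries were above both OGT-KO libraries. The ratio was 0.428 with no recovery, or 2.34 (2.28 to 2.40) in the other direction, and 0.523 after 7 days, or 1.91 (1.86 to 1.96). Its log2(CPM + 1) difference was −1.22 and −0.93, and −1.87 and −1.55 less the median gene.

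Gjb2 (ENSMUSG00000046352, chromosome 14, 2 exons), or Cx26, is the second connexin of the hepatocyte and is strongest near the portal tract. It was at 379.6 (371 to 388) and 249.8 (243 to 256) CPM with no recovery and at 466 (456 to 475) and 258 (251 to 264) CPM after 7 days, control first. The control libraries were again the higher, by 1.52 (1.47 to 1.57) and 1.81 (1.75 to 1.87). The log2 difference of Gjb2 was −0.60 and −0.85, which is under 2-fold, and −1.25 and −1.46 less the median gene. Under median-ratio, upper-quartile and TMM scaling both Gjb1 and Gjb2 were at least 2-fold lower at both times. Of 8 hepatocyte markers, 2 were 2-fold lower with no recovery and 1 after 7 days at the deposited scaling. Of all genes 4.35% and 3.32% were. By median ratio, where 1630 and 1253 of all 13903 genes were lower, 5 and 3 of the markers were. Of the markers 0 were higher under both scalings. The median log2 difference of these markers was −0.48 and −0.12 at the deposited scaling and −1.20 and −0.80 by median ratio. Under that scaling Gjb1 had −1.94 and −1.62, and Gjb2 had −1.32 and −1.53. With no recovery the single markers then lay between −2.32 (Apoa1) and −0.57 (Tat). They summed to 73393 and 80428 CPM in the controls and to 55384 and 66734 CPM under the OGT-KO label. Their part in the connexin values was not tested.

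Gja1 (ENSMUSG00000050953, chromosome 10, 2 exons), or Cx43, is a connexin of liver cells other than hepatocytes. It was at 5.03 (4.13 to 6.08) CPM in the control and 35.0 (32.6 to 37.5) CPM in the OGT-KO library with no recovery, and at 2.75 (2.07 to 3.58) and 40.3 (37.7 to 43.0) CPM after 7 days. Its reads, control first, were 107 and 801 and then 55 and 909, with no overlap of the intervals. The ratio was 6.96 (5.68 to 8.60) and 14.6 (11.1 to 19.6), and the log2(CPM + 1) difference less the median gene 1.93 and 2.85. Gja1 stayed at least 2-fold higher under each scaling and pseudocount. Stellate cell markers moved with it: all 8 were at least 2-fold higher under the OGT-KO label at both times. By median ratio, where 2399 and 2777 of all 13903 genes were higher, all 8 markers were too. They summed to 203 and 133 CPM in the controls and to 1839 and 2122 CPM under the OGT-KO label, with none at 0 in any library. Of all genes 33.1% and 32.3% were higher. This was not particular to stellate cells: 8 and 9 of 10 bile duct, 5 of 6 macrophage at each time, and 2 and 4 of 5 mesothelial markers were higher. Of endothelial markers 3 and 1 of 6 were, and of lymphocyte markers 1 and 0 of 4. The part of stellate or other cells in the Gja1 value was not tested.

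The promoter of Gja1 is shown because this was the connexin that was higher. The 150 bases before its start, RefSeq on GRCm38.p6, chr10:56377150-56377299, plus strand, 5′ to 3′, hold 1 match to the AP-1 site TGANTCA, in capitals.
Gja1: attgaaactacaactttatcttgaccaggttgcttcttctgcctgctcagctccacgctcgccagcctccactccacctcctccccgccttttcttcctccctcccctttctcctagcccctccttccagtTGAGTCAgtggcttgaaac
The match begins 19 bases before the start. In the 250 bases before the start, TGANTCA on either strand stood in 1 of the 12 windows of the junction genes and in 6.75% of all 32851.

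Within a library, Gjb2 per kb was 0.304 (0.296 to 0.312) of Gjb1 in the control and 0.468 (0.452 to 0.484) in the OGT-KO library with no recovery. After 7 days the figures were 0.383 (0.374 to 0.393) and 0.406 (0.393 to 0.419), much closer. Gja1 was 0.00305 (0.00250 to 0.00369) of Gjb1 per kb in the control library with no recovery and 0.0496 (0.0461 to 0.0533) in the OGT-KO library, and 0.00171 (0.00129 to 0.00223) and 0.0479 (0.0447 to 0.0513) after 7 days. The 3 connexins summed to 678 and 699 CPM per kb in the controls and to 337 and 384 under the OGT-KO label, Gja1 making up 3.27% and 3.30% of the latter. Unlike the ratios, these sums depend on the scaling between labels.

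**Figure D3:**
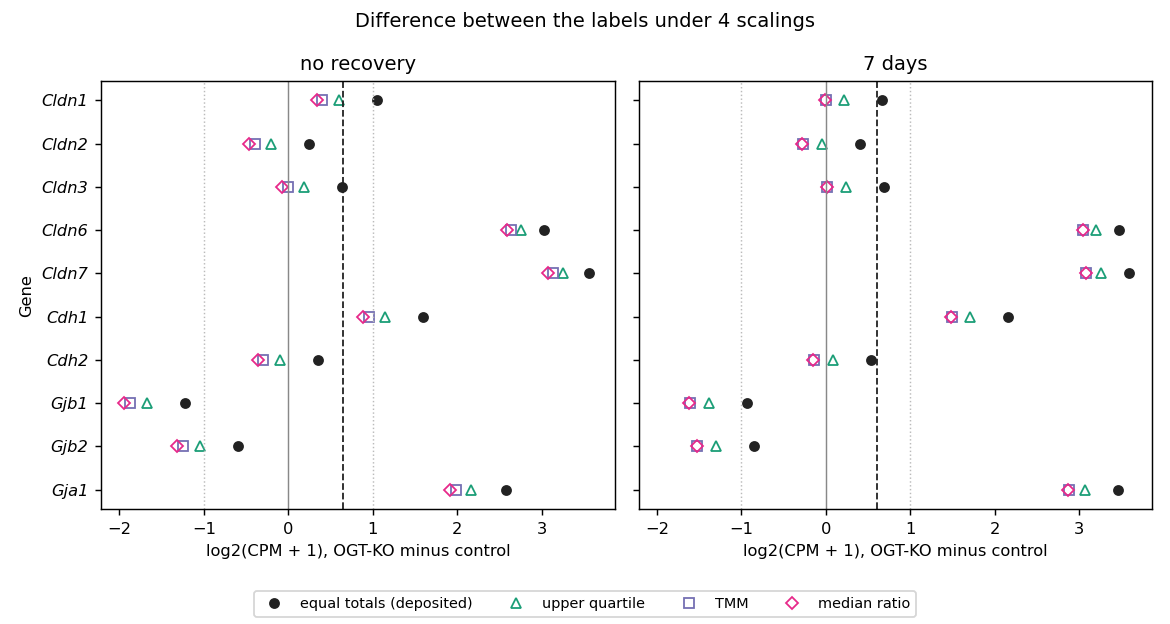
Log2(CPM + 1) difference of OGT-KO minus control for each junction gene with no recovery (left) and after 7 days (right). Filled circles are the deposited equal totals and open symbols are upper-quartile, TMM and median-ratio scaling. The dashed line is the median gene (0.65 and 0.61) and dotted lines mark 2-fold. Cldn6, Cldn7, Cdh1 and Gja1 lie right of 0 and Gjb1 and Gjb2 left of it under all 4 scalings.

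Between no recovery and 7 days no junction gene moved by 2-fold on the log2(CPM + 1) scale. These comparisons use the same 4 libraries as those between labels. In the libraries labelled control 0 of 10 members were 2-fold higher after 7 days than with no recovery, where 0.223% of all genes were, and 0 were 2-fold lower, where 0.964% were. Under the OGT-KO label 0 members were higher, where 1.28% of all genes were, and 0 were lower, where 0.791% were. The members' median log2 difference was 0.14 in the control and 0.23 in the OGT-KO libraries, beside −0.05 and −0.02 over all genes.

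In the control libraries the change past counting error with the greatest fall was that of Gja1, whose CPM ratio of 7 days to no recovery was 0.547 (0.388 to 0.764). Gjb2 was 1.23 (1.19 to 1.26), Cldn2 1.18 (1.10 to 1.26), Cldn3 1.13 (1.06 to 1.20) and Cldn1 1.12 (1.03 to 1.21) of its level with no recovery. Gjb1 was at 0.973 (0.952 to 0.994). Cldn7 was at 2.34 (1.06 to 5.54), from 10 and 22 reads, and with a pseudocount of 0.1 in place of 1 it passed 2-fold. For Cldn6, Cdh1 and Cdh2 the counting interval of the ratio held 1.

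Under the OGT-KO label Cdh1 was 1.53 (1.48 to 1.59), Cldn6 1.53 (1.29 to 1.82) and Cldn7 1.49 (1.30 to 1.70) of the level with no recovery. Cldn2 was 1.31 (1.24 to 1.38), Gjb1 1.19 (1.15 to 1.23), Cldn3 1.16 (1.11 to 1.21), Gja1 1.15 (1.04 to 1.27) and Cdh2 1.10 (1.04 to 1.16). Cldn1 was the 1 member below its level with no recovery, at 0.856 (0.810 to 0.905), and for Gjb2 the interval held 1. The log2(CPM + 1) difference between the labels was 0.88 larger after 7 days than with no recovery for Gja1 and 0.56 larger for Cdh1, a change that could not be tested with 1 library per condition. For Cldn6, Cldn7 and Gja1 this change depends on the pseudocount. The difference of Gja1, no recovery first, was 2.77 and 3.82 with a pseudocount of 0.1 and 1.58 and 1.98 with one of 10. That of Cldn6 was 4.53 and 4.78, and then 0.94 and 1.26. For Cldn7 it was 4.85 and 4.34 with 0.1 but 1.33 and 1.63 with 10, so that the direction of its change turned on the pseudocount.

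**Figure D4:**
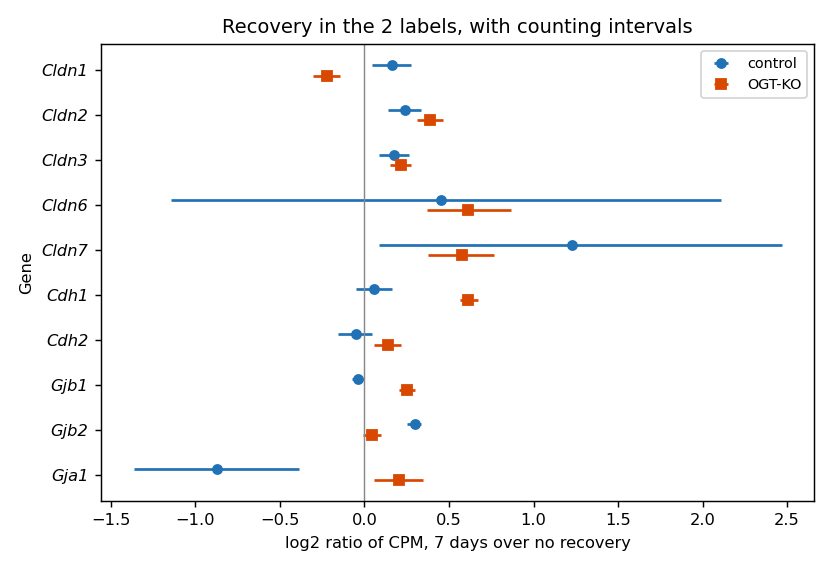
Log2 ratio of CPM at 7 days over no recovery for each junction gene in the control (circles) and OGT-KO (squares) libraries, with exact 95% counting intervals. Under the OGT-KO label 9 of the 10 ratios lie above 0, and Cldn1 lies below it.

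The partners of these proteins were counted from lists of the other genes of each junction. Of all genes, 33.1% and 32.3% were 2-fold higher under the OGT-KO label at the 2 times, and 4.35% and 3.32% lower. By median ratio 2399 and 2777 of the 13903 genes were higher, and 1630 and 1253 lower. These figures stand beside each list below. Of 7 other claudins in the table, 3 were 2-fold higher and 1 lower under the OGT-KO label with no recovery, and 4 and 1 after 7 days. By median ratio 2 were higher and 2 lower at each time. Cldn12, found in many epithelia, was at 62.6 and 29.5 CPM with no recovery and at 64.8 and 38.7 CPM after 7 days, control first. Cldn14, a barrier claudin, was at 14.7 and 8.31 CPM and then at 16.8 and 7.13 CPM. Cldn4, a claudin of duct-like epithelia, had 1 and 6 reads in the control libraries and stood at 21.6 and 26.5 CPM under the OGT-KO label. Other claudins thus lay on both sides of 0.

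Of 21 tight junction partners found, 11 were 2-fold higher under the OGT-KO label with no recovery and 14 after 7 days, and 0 were lower at either time, where 33.1% and 32.3% of all genes were higher. By median ratio 2 were higher and 2 lower with no recovery, and 4 and 0 after 7 days. Their median log2 difference was 1.04 and 1.16, beside 0.65 and 0.61 for all genes, and 0.36 and 0.48 by median ratio, beside 0.03 and 0.02. Cxadr, an adhesion molecule of the tight junction, was at 90.9 and 328 CPM with no recovery, and F11r, the adhesion molecule JAM-A, at 73.7 and 225 CPM. Cgnl1, which links the junction to actin, was at 131 and 136 CPM, below the shift of the median gene. The scaffold Tjp1 was at 32.5 and 78.5 CPM with no recovery and at 33.6 and 76.2 CPM after 7 days. Ocln, a membrane protein of the tight junction, was at 11.6 and 25.0 CPM and then at 13.7 and 33.1 CPM. By median ratio, the log2 difference with no recovery was 0.54 for Tjp1 and 0.36 for Ocln, below 2-fold, and that of Cgnl1 turned to −0.66.

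Of 12 partners of the adherens junction, 6 were higher and 0 lower at each time, where 33.1% and 32.3% of all genes were higher. Their median log2 difference was 1.01 at both times, beside 0.65 and 0.61 for all genes. By median ratio 1 was higher (Nectin4) and 1 lower (Nectin3) at each time. The list medians were then 0.30 and 0.34, beside 0.03 and 0.02 for all genes. Ctnnb1, which binds the cadherin tail, was at 189 and 384 CPM with no recovery, and Ctnna1, which ties it to actin, at 125 and 267 CPM. Ctnnd1, which holds cadherins at the membrane, was at 22.9 and 46.7 CPM, just short of 2-fold on the log2(CPM + 1) scale. By median ratio, the log2 difference with no recovery was 0.30 for Ctnnb1, 0.38 for Ctnna1 and 0.30 for Ctnnd1, so that all 3 stayed higher and none by 2-fold. Nectin1, another adhesion molecule of this junction, was at 107 and 93.8 CPM. Among 10 other cadherins, 7 were higher and 0 lower at each time, and by median ratio 3 were higher with no recovery and 6 after 7 days. Cdh5, the cadherin of endothelium, was at 27.6 and 71.2 CPM with no recovery, Cdh6 at 0.470 and 13.8 CPM and Cdh3 at 0.612 and 11.7 CPM.

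Of 8 other connexins and pannexins found, 7 were higher and 0 lower at each time, against 33.1% and 32.3% of all genes higher. By median ratio 5 of the 8 were higher at each time, with 0 and then 1 lower. Gja4 and Gja5, connexins of arterial endothelium, were at 5.27 and 14.9 CPM and at 3.43 and 8.13 CPM with no recovery, and Panx1, a channel to the outside of the cell, at 0.564 and 12.2 CPM. Of 10 desmosome genes, 6 were higher and 0 lower at each time, and by median ratio 4 and 0. The desmosomal cadherin Dsg2 was at 115 and 128 CPM with no recovery and at 116 and 221 CPM after 7 days, Pkp4 at 104 and 136 and then 85.4 and 127 CPM, and the plaque protein Dsp at 57.1 and 125 and then 64.9 and 144 CPM.

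**Figure D5:**
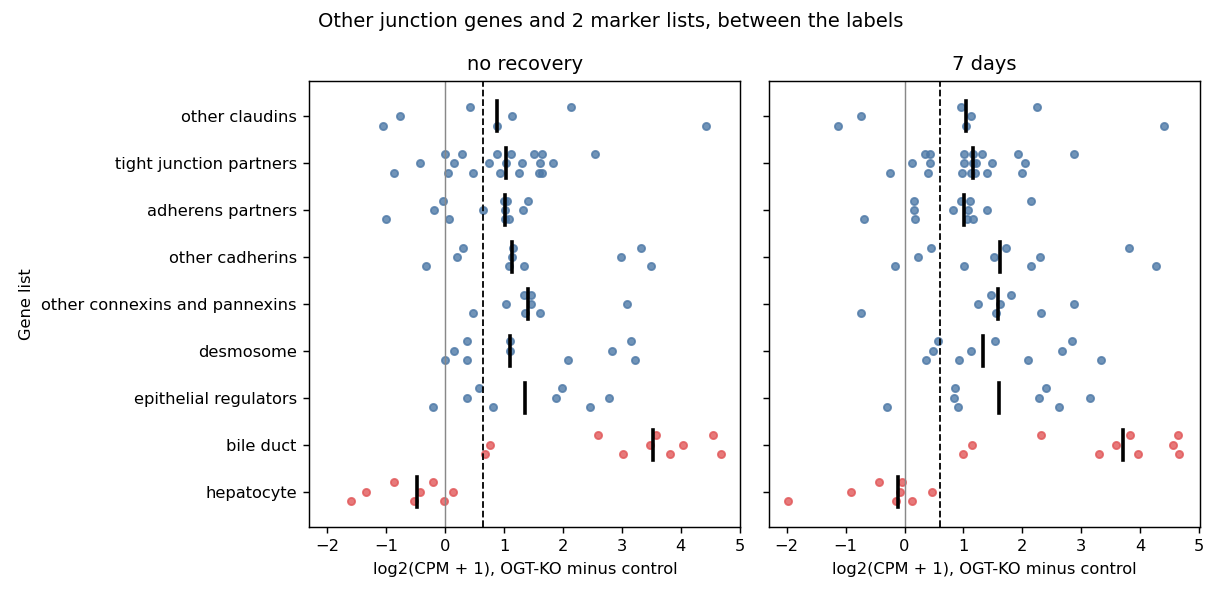
Log2(CPM + 1) difference of OGT-KO minus control for the genes of each list of junction partners (blue) and for bile duct and hepatocyte markers (red), with no recovery and after 7 days. Black bars are list medians and the dashed line is the median gene. At the deposited scaling most partners lie right of 0, and bile duct markers farthest, at medians of 3.52 and 3.70.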

How the data were processed

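Liver mRNA was measured in 4 pooled libraries, 1 per condition. The authors deposited a table of CPM, named for DESeq2 normalization, whose columns each sum to 1000000. The submitters' processing notes name STAR, DESeq2 and GRCm39, and the counter and filter are not given in the sources used here. Whole reads were recovered from the CPM (100.0% of values lay within 0.01 read of a whole number), from 19972699 to 22866431 per library, and 3 reads correspond to 0.131 to 0.150 CPM.

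Differences were computed on log2(CPM + 1), which understates changes of low genes, over all 13903 genes with no filter, and called at 2-fold. Levels have exact Poisson and ratios exact binomial 95% intervals. With 1 library per condition no p-value is given. An exact binomial test on reads, with Benjamini-Hochberg adjustment over all genes, compares libraries and not conditions: it passed for all 10 members between labels at both times, as it did for 12121 and 11929 genes. Levels were compared between genes per kb of the GENCODE M21 principal transcript. Promoter sequences were found in RefSeq for 8 of 10 members, without Cdh1 and Cdh2.

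The members, the lists and the pairs of genes set against each other were chosen with earlier results of these data known. All 10 members are named, with the 3 genes of highest mean in each partner list and Tjp1, Ocln, Ctnnb1, Ctnna1 and Ctnnd1. Alternatives were pseudocounts of 0.1 and 10, filters at a mean of 10 and 50 CPM, and median-ratio, upper-quartile and TMM scaling. Counts over the lists by median ratio were added after seeing the data. Tested on simulated data of 13903 genes for each comparison between labels, the steps recovered 200 of 200 genes changed 4-fold, with 0 false calls. A 4-fold change lies well past the 2-fold call. These figures therefore check the computation only, and say nothing of changes near 2-fold or of the spread between animals. Python 3.11.15, numpy 2.4.6, pandas 2.3.3, scipy 1.17.1, matplotlib 3.10.9, R 4.3.3 and edgeR 4.0.16 (TMM factors only) were used.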

Additional observations from a re-analysis of the deposited data

Results flagged for a closer look

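The recovery of 3 junction genes went in opposite directions under the 2 labels, each by more than its counting interval. Cldn1 was 0.16 higher on the log2(CPM + 1) scale after 7 days in the control libraries, with a difference of −0.22 under the OGT-KO label. Gja1 had a difference of −0.68 in the controls and 0.20 under the OGT-KO label. Gjb1 had −0.04 in the controls and 0.25 under the OGT-KO label, and its value in the controls was no longer below 0 under median-ratio, upper-quartile and TMM scaling. With 1 library per condition the difference between the labels was not tested for any of the 3.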

How the results depend on the processing

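No paired analysis was possible because each condition has 1 library, and for the same reason no library could be left out. With no recovery, 5 members were at least 2-fold higher under the OGT-KO label, but 3 with a pseudocount of 10, with median-ratio scaling and with TMM scaling. The 1 member at least 2-fold lower became 2 with median-ratio, upper-quartile and TMM scaling. The members' median, 0.85, was 0.14 by median ratio, 0.40 by upper quartile and 0.20 by TMM. After 7 days 0 members were lower, and 2 were under those 3 scalings, while the median, 0.68, was 0.00, 0.23 and 0.01 in the same order. In the control libraries 0 members were higher after recovery and 1, Cldn7, with a pseudocount of 0.1. Of the 20 differences between labels, 14 kept their direction by median ratio, 17 by upper quartile, 16 by TMM and all 20 under both pseudocounts. Over all genes, the 4595 higher and 605 lower with no recovery became 2399 and 1630 by median ratio, 3002 and 1115 by upper quartile and 2531 and 1505 by TMM, and the 4492 and 461 after 7 days became 2777 and 1253, 3183 and 837, and 2781 and 1238. With a pseudocount of 10 the higher genes were 1539 and 1596. Filters at a mean of 10 and 50 CPM left 2185 and 525 higher with no recovery and 2050 and 503 after 7 days, having fewer genes to count, and the filter at 50 left 351 and 281 lower. After recovery, a pseudocount of 0.1 raised the higher and lower genes from 31 and 134 to 260 and 610 in the control libraries and from 178 and 110 to 342 and 281 in the others, and one of 10 brought them to 12 and 21 and to 41 and 22. The filter at 10 left 86 lower in the controls, and 93 higher and 39 lower in the others, and the filter at 50 left 11 and 31, and 40 and 14. The depth limits Cldn6 and Cldn7 in the controls, with 7 to 22 reads each.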

Other observations

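Regulators of the epithelial state were listed beside the junction genes. Of 8 in the table, 4 were at least 2-fold higher and 0 lower under the OGT-KO label at each time. Of all genes 33.1% and 32.3% were higher. The median log2 difference of the 8 was 1.35 with no recovery and 1.60 after 7 days, beside 0.65 and 0.61 for all genes. By median ratio, where 2399 and 2777 of all 13903 genes were higher, the counts for the 8 were the same. The median of the 8 with no recovery was then 0.71, beside 0.03 for all genes. Esrp2, a splicing factor of epithelial cells, was at 118 and 102 CPM with no recovery and at 129 and 105 CPM after 7 days, control first. Zeb2 and Zeb1, repressors of Cdh1 in other settings, were at 9.13 and 36.5 CPM and at 16.6 and 25.3 CPM with no recovery. After 7 days they were at 6.76 and 36.7 CPM and at 12.7 and 23.7 CPM. Snai1, another repressor of Cdh1, named after its values were seen, was at 1.03 and 10.2 CPM with no recovery and at 0.901 and 9.04 CPM after 7 days. Grhl2 and Esrp1, also named after their values were seen, were likewise called higher at both times. With no recovery they were at 0.282 and 4.07 CPM and at 0.235 and 7.57 CPM. After 7 days they were at 0.350 and 7.31 CPM and at 0.0501 and 8.33 CPM. Esrp1 had 5 and 1 reads in the control libraries. At the deposited scaling Zeb2, Snai1, Grhl2, Esrp1 and Cdh1 were all at least 2-fold higher in the same bulk libraries. By median ratio Cdh1 with no recovery was at 0.89, below 2-fold. Which cells carried each transcript, and any link between the regulators and Cdh1, was not tested.

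Markers of other cells of the liver were also counted. Of all genes, 33.1% and 32.3% were 2-fold higher under the OGT-KO label at the 2 times. After recovery 0.964% were 2-fold lower in the control libraries and 0.791% under the OGT-KO label. By median ratio 2399 and 2777 of all 13903 genes were 2-fold higher under the OGT-KO label than in the control, with no recovery and after 7 days. Of 6 macrophage markers, 5 were 2-fold higher under the OGT-KO label at each time (by median ratio 3 with no recovery and 5 after 7 days), and all 6 were 2-fold lower after 7 days than with no recovery in the control libraries, while 0 of 6 were under the OGT-KO label. Their sum was 168 and 62.5 CPM in the controls and 578 and 412 CPM under the OGT-KO label. Of 6 endothelial markers, 3 were higher with no recovery and 1 after 7 days, and by median ratio 1 at each time. Of 5 mesothelial markers, 2 and 4 were higher (1 and 4 by median ratio), from sums of 5.79 and 5.36 CPM in the controls to 16.3 and 27.3 CPM. Of 4 lymphocyte markers found, 1 and 0 were higher (0 at both times by median ratio), with sums of at most 5.82 CPM.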
